A study of Mus musculus with 20 samples.

Results

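Stellate cell and matrix genes were examined in mouse livers with a guide RNA against Hira and in control livers. The set holds 36 genes, taken by symbol from a table of 55421 genes: collagens, other matrix proteins, the enzymes and inhibitors that turn the matrix over, growth factors and receptors of the fibrogenic response, and filament and retinoid proteins of hepatic stellate cells. All 36 had the 10 counts over the 20 libraries that were required for testing, as did 22867 genes in all. Bulk RNA-seq was performed on 20 livers, 5 in each of 4 groups. C57BL/6 mice without an engineered allele, labelled female, received at 6 months of age an AAV8 vector in which the Tbg promoter drives saCas9. The vector carried a guide against HIRA (HIRA KO) or against Rosa26, a site whose disruption is used as a neutral control, and livers were taken 3 weeks or 6 months later. Every group therefore carried the virus and the nuclease. The Tbg promoter is active in hepatocytes and not in stellate cells or fibroblasts, which limits the model to loss of HIRA from hepatocytes.

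Hepatic stellate cells lie between hepatocytes and the sinusoidal endothelium. In the healthy liver they store vitamin A as retinyl ester, formed by lecithin retinol acyltransferase (Lrat), and secrete reelin and hepatocyte growth factor. After injury, transforming growth factor beta and platelet-derived growth factor drive them towards a contractile, collagen-secreting myofibroblast. Portal fibroblasts, vascular smooth muscle and other mesenchymal cells share many of the same genes, and hepatocytes themselves secrete the plasma form of fibronectin and express Col18a1.

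Library depth was similar, with 19916430 to 24079736 counts per library. The Hira transcript had 128 to 171 counts in Rosa26 livers and 87 to 127 counts in HIRA KO livers at 3 weeks, and 105 to 157 against 109 to 136 counts at 6 months. In edgeR's quasi-likelihood test the log2 fold change of Hira was -0.48 ± 0.14 (standard error; adjusted p = 0.197) at 3 weeks and -0.10 ± 0.14 (adjusted p = 0.794) at 6 months, so the transcript did not pass the threshold of 0.05 at either time, although the counts of the arms did not overlap at 3 weeks. At 6 months, 2 HIRA KO libraries stood apart, and the 6-month counts, medians and most single genes are also given without one or both of them. Replicate 5 went against its female label, with 9 counts of Xist, the RNA of the inactive X chromosome, and 2041 counts of 4 Y-linked genes, while the other 19 libraries had at least 6286 and at most 13. The text of the study describes the mice of this experiment as male, while its legend and the labels call them female. Replicate 3 had the highest level of 28 of the 36 members among all 20 libraries.

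The levels of the members spanned a wide range. Per kilobase of exon, as CPM (counts scaled to the TMM-normalized library size, here and throughout) divided by exon length and averaged over 20 libraries, Col18a1 (chromosome 10, 77052178 to 77166548, GRCm38) was highest at 186 and Fn1, fibronectin (chromosome 1, 71585520 to 71653200), followed at 158. The small proteoglycans Dcn and Bgn came next at 29.2 and 26.2, and the lowest member was the ligand Tgfb2 at 0.158. Col18a1 and Fn1 together took 73.8 to 85.9% of the members' counts in the 10 Rosa26 libraries and the 3-week HIRA KO libraries lay within that range, but their share was as low as 50.2% in a 6-month HIRA KO library. For the other 34 members, the summed level was 731 to 1070 CPM in Rosa26 and 740 to 987 CPM in HIRA KO livers at 3 weeks, and 614 to 958 CPM against 572 to 2170 CPM at 6 months. The quiescent markers Lrat and Reln were detected in each library, and none of 16 further stellate markers, among them Hand2, Ngfr and Colec11, was at 0 counts in any library. In bulk tissue, fewer cells of a type and less RNA per cell cannot be told apart.

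Sequences at the start sites are shown for Col4a2 and Col1a2, whose partner chains are compared with them further on, and for Col3a1, the most abundant fibrillar collagen per kilobase. The windows are RefSeq promoter windows of GRCm38.p6, 250 bases before to 50 after the annotated start. Capitals mark matches to the GC box (GGGCGG), to the CCAAT box and to the TATA box (TATAAA), each searched on both strands. None of the marked matches overlaps another.
Col4a2, chr8:11312555-11312854, plus strand: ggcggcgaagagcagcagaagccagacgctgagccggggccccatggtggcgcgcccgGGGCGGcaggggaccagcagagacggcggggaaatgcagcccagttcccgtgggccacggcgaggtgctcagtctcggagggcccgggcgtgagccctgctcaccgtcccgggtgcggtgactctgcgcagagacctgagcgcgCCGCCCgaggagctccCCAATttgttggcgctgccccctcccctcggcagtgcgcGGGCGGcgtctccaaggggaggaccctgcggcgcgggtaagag
Col1a2, chr6:4505368-4505667, plus strand: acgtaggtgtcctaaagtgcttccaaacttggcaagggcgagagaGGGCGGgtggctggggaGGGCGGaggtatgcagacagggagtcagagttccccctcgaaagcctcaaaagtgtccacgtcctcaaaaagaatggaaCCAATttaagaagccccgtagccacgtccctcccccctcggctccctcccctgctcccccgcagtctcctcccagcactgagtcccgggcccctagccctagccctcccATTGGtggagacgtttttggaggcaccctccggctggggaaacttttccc
Col3a1, chr1:45311288-45311587, plus strand: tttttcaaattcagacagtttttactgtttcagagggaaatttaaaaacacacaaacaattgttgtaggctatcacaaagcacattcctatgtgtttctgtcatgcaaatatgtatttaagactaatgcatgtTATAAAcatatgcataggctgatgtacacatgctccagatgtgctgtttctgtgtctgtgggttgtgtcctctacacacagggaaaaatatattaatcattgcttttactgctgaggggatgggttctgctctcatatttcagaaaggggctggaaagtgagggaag

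The Col4a2 window also holds the start of Col4a1. The genes encode the chains of basement membrane collagen IV and are transcribed away from each other from start sites 21 bases apart, at 11312805 (Col4a2) and 11312826 (Col4a1). The window held 3 copies of GGGCGG and 1 of CCAAT, the Col1a2 window held 2 copies of each, and the Col3a1 window held 1 TATAAA and neither of the others. Across 32851 windows of the same length, 35.7% held GGGCGG, 37.4% CCAAT and 13.6% TATAAA. For the members, 31 windows of 27 genes were found, of which 17, 12 and 4 held these motifs. Such matches describe letters only and are not evidence that a factor binds.

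At 3 weeks, the stellate cell and matrix genes of HIRA KO livers lay close to those of controls. Of the 36 members, 24 had a log2 fold change above 0 and 12 below, with a median of 0.04 against -0.01 over all tested genes. None was called at an adjusted p under 0.05 with an absolute log2 fold change over 1, beside 0.114% of all tested genes. At an unadjusted p under 0.05 the count was 1 member (2.78%), beside 8.87% of all tested genes, and DESeq2 also called 0 members. The smallest adjusted p among the members was 0.551. The collagen fold changes spanned -0.52 (Col15a1) to 0.16 (Col14a1), and no collagen had an unadjusted p under 0.05.

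The member with the smallest p at 3 weeks was Mmp14 (chromosome 14, 54431612 to 54445364), a membrane-anchored matrix metalloprotease. Its level was 64.4, 62.8, 68.4, 61.4 and 60.3 CPM in replicates 1 to 5 of the Rosa26 group and 48.9, 56.5, 50.8, 52.1 and 48.9 CPM in HIRA KO livers. The groups did not overlap, as for 2.69% of all tested genes, and Mmp14 was the only member of which this was true. The difference was -0.30 ± 0.14 on the log2 scale (edgeR adjusted p = 0.551) and missed the threshold. Fn1 was 1750, 2990, 2050, 1850 and 1870 CPM in Rosa26 and 1690, 1690, 1580, 1770 and 1840 CPM in HIRA KO livers, and its difference of -0.29 ± 0.16 (log2) missed the threshold too (edgeR adjusted p = 0.647). Rosa26 replicate 2 held the highest Fn1 value, and without it the log2 fold change was -0.13.

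At 6 months, most members had higher fitted levels in HIRA KO livers, but the groups overlapped for every member and no member passed the test. The log2 fold change was above 0 for 33 of 36 members, with a median of 0.46 against 0.03 over all tested genes. The exceptions were Col18a1, Fn1 and Col15a1. None was called, beside 0.332% of all tested genes, and the smallest adjusted p was 0.196. DESeq2 called 0 members as well. At an unadjusted p under 0.05 the count was 9 members, 8 higher and 1 lower (25%), beside 15.5% of all tested genes and 21.1% of the 12903 genes with at least 1 CPM. No member separated the groups fully, beside 3.15% of all tested genes.

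**Figure D1:**
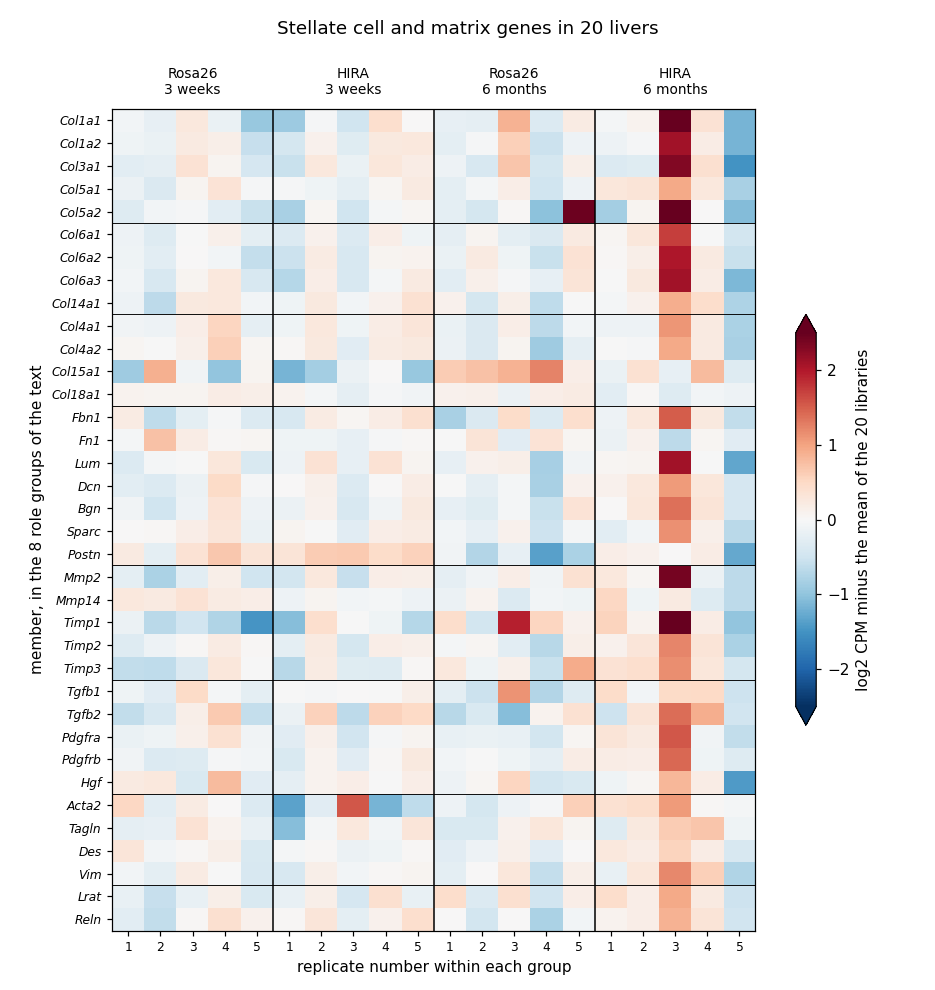
Level of each of the 36 members (vertical axis, in role groups divided by lines) in each of the 20 livers (horizontal axis, replicate number in 4 groups), as log2 CPM minus the gene's mean over 20 libraries, with red above and blue below the mean. Replicate 3 of the 6-month HIRA group is the highest library for 28 members, and replicate 5 of that group is the lowest for 17.

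The 6-month values turned on replicates 3 and 5 of the HIRA group, as the heat map of the members shows. Averaged as a median over the members, replicate 3 lay 1.14 log2 units above the 20-library mean and replicate 5 lay at -0.63, while the other 3 HIRA KO livers lay between 0.01 and 0.22 and the Rosa26 livers between -0.47 and 0.12. Replicate 3 exceeded the median of the other 4 HIRA KO livers by more than 1 log2 unit for 19 members, and it lay below that median for Fn1, Col15a1, Col18a1 and Postn. Without replicate 3, the median log2 fold change was 0.03, 22 of 36 members lay above 0, and 2 members had an unadjusted p under 0.05 (beside 13.9% of all tested genes), both lower. These were Col18a1 and Col5a2. Without replicate 5, the library that goes against its sex label, the median was 0.62, and 25 members had an unadjusted p under 0.05, beside 17.7% of all tested genes. Col5a1 then had an edgeR adjusted p of 0.0471 at a log2 fold change of 0.62, under the fold threshold. Without both, the median was 0.18, 29 members lay above 0 and 7 had an unadjusted p under 0.05 (beside 13.5% of all tested genes), all higher: Postn, Col5a1, Des, Timp2, Pdgfra, Reln and Dcn. Leaving out other libraries also moved the count of 9, to 14 without HIRA replicate 1 (beside 13.8% of all tested genes), to 1 without Rosa26 replicate 4 (beside 11.9%), and to 5 and 6 without Rosa26 replicates 1 and 2 (beside 14.1% and 15%). No member was called in any of these fits.

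**Figure D2:**
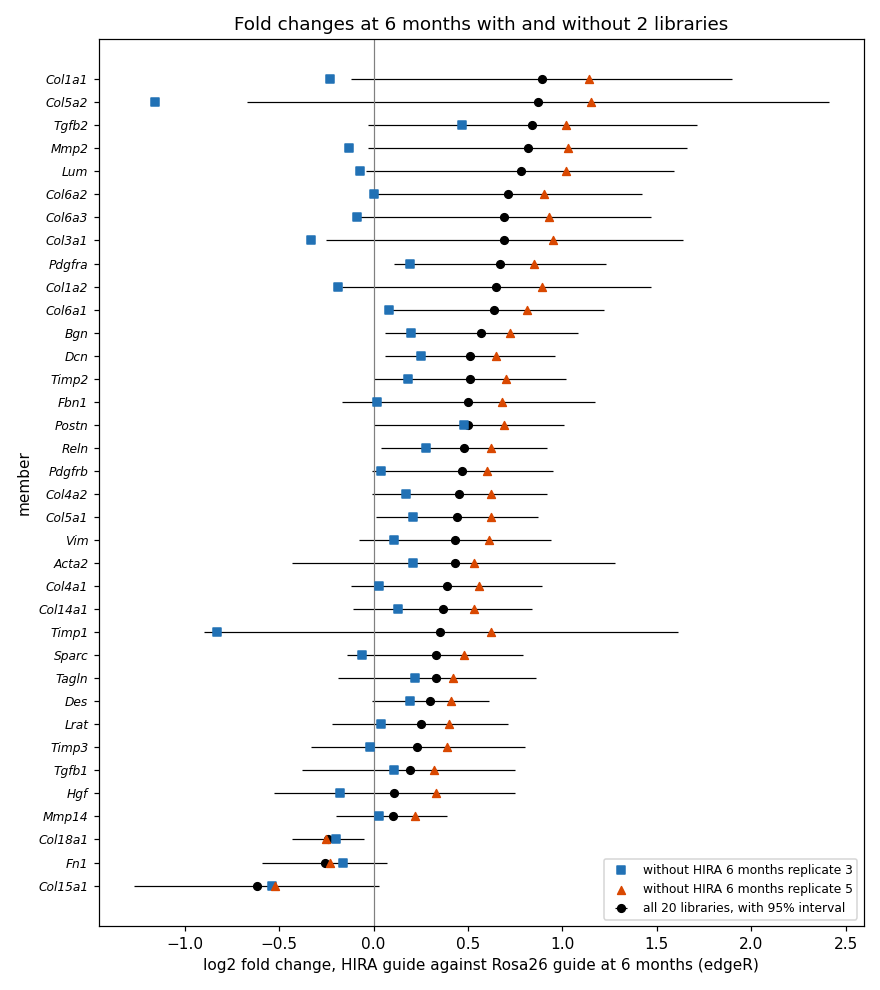
Log2 fold change of each member at 6 months, HIRA guide against Rosa26 guide (horizontal axis, edgeR), with all libraries and its 95% interval (black), without HIRA replicate 3 (blue squares) and without HIRA replicate 5 (orange triangles). The median moves from 0.46 to 0.03 and to 0.62, and Col1a1, Col3a1, Col5a2 and Mmp2 lie below 0 without replicate 3.

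Among the fibrillar collagens, which form the banded fibres of scar tissue, all 5 had a fold change above 0 at 6 months, with a median of 0.69, and 1 had an unadjusted p under 0.05. The median was -0.23 without replicate 3, with 1 of 5 above 0, 0.95 without replicate 5 and 0 without both. Col3a1 (chromosome 1, 45311538 to 45349706), the most abundant of them per kilobase, had 30.1, 25.0, 53.2, 24.4 and 36.4 CPM in Rosa26 and 25.9, 26.8, 165, 43.4 and 11.6 CPM in HIRA KO livers. The highest and the lowest value of all 20 libraries were thus in the same group, and the log2 fold change was 0.69 ± 0.45 (95% interval -0.25 to 1.64). Col1a1 (chromosome 11, 94936224 to 94953042), the main chain of collagen I, had 13.2, 13.1, 28.1, 12.0 and 17.6 CPM in Rosa26 and 14.7, 16.2, 97.5, 19.7 and 6.81 CPM in HIRA KO livers. Replicate 3 exceeded the median of the other 4 HIRA KO livers 6.31-fold for Col1a1 and 6.26-fold for Col3a1. The log2 fold change of Col1a1 was 0.89 ± 0.49 (edgeR adjusted p = 0.398) and lay below 0 without replicate 3.

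Col5a2 (chromosome 1, 45374321 to 45503282), a chain of the fibril-nucleating collagen V, was uneven in both arms. It had 3.24, 2.84, 3.96, 1.85 and 21.5 CPM in Rosa26 and 2.11, 4.10, 49.0, 3.91 and 1.78 CPM in HIRA KO livers at 6 months. Of the 20 libraries, 18 were at or below 4.10 CPM, and 1 library in each arm was far above. Col5a1 had 27.2 CPM in HIRA replicate 3, against 7.98 to 17.5 CPM in the other HIRA KO livers, and 12.9 CPM in Rosa26 replicate 5, near the middle of that group.

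The type VI collagens form beaded filaments around cells, and Col14a1 belongs to the collagens that associate with fibrils. All 4 had a fold change above 0 at 6 months, with a median of 0.66, and Col6a1 and Col6a2 had an unadjusted p under 0.05. The median was 0.04 without replicate 3, 0.86 without replicate 5 and 0.17 without both. Without replicate 3 the log2 fold change was 0.08 for Col6a1, 0.00 for Col6a2, -0.09 for Col6a3 and 0.13 for Col14a1. Col14a1 (chromosome 15, 55307750 to 55520803) had 54.0, 37.3, 55.4, 32.2 and 49.6 CPM in Rosa26 and 48.3, 53.9, 94.0, 68.6 and 29.6 CPM in HIRA KO livers. Its log2 fold change was 0.37 ± 0.23 (95% interval -0.11 to 0.84). The 3 collagen VI genes were 3.30-fold, 3.88-fold and 4.03-fold above the median of the other HIRA KO livers in replicate 3.

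The basement membrane group split. Col4a1 and Col4a2 had log2 fold changes of 0.39 ± 0.24 and 0.45 ± 0.23 at 6 months (0.03 and 0.17 without replicate 3), while Col15a1 and Col18a1, the collagens that carry endostatin-type domains, had values below 0. Col18a1 had 1410, 1410, 1180, 1450 and 1490 CPM in Rosa26 and 1080, 1320, 1040, 1240 and 1190 CPM in HIRA KO livers. All HIRA KO livers lay below 4 of the 5 controls, and the remaining control, replicate 3, lay among them. The difference was -0.24 ± 0.09 on the log2 scale (95% interval -0.43 to -0.05, edgeR adjusted p = 0.196), the smallest p of any member in this comparison. With DESeq2 the adjusted p was 0.0299 at a log2 fold change of -0.25, still under the fold threshold. Apart from leaving out libraries, the alternatives put the log2 fold change between -0.25 and -0.13. At 3 weeks the difference of Col18a1 was -0.17 ± 0.09 (edgeR adjusted p = 0.63), from 1360 to 1480 CPM in Rosa26 and 1120 to 1370 CPM in HIRA KO livers. Col15a1 had 22.4, 24.0, 26.3, 34.1 and 16.0 CPM in Rosa26 and 12.7, 18.7, 12.4, 24.8 and 11.5 CPM in HIRA KO livers at 6 months. The arms overlapped, at -0.62 ± 0.31 on the log2 scale (edgeR adjusted p = 0.349), and at -0.54 without replicate 3. The difference of Col18a1 was -0.20 without it and -0.25 without replicate 5.

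**Figure D3:**
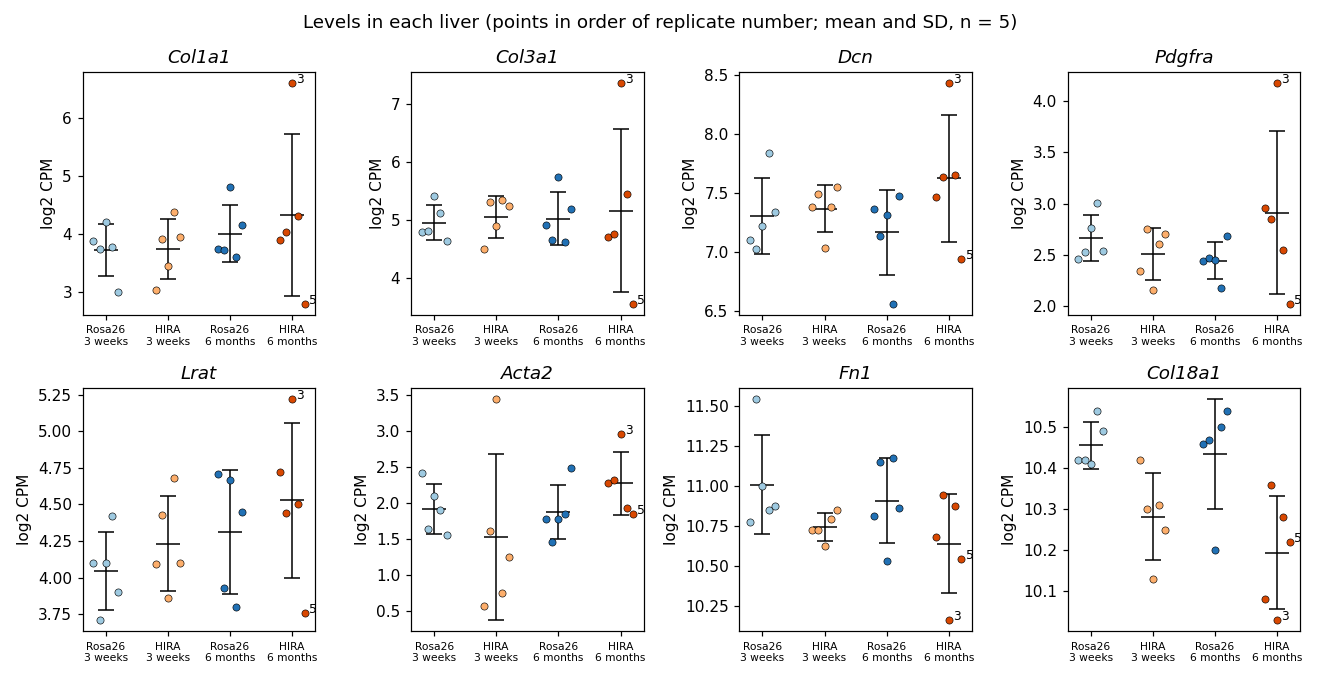
Level in each liver as log2 CPM (vertical axis) for 8 members in the 4 groups (horizontal axis), with points in order of replicate number and the mean and SD of 5 livers as bars. HIRA replicates 3 and 5 at 6 months, marked by number, bound the group for Col1a1, Col3a1, Dcn, Pdgfra and Lrat, whereas replicate 3 is the lowest library for Fn1 and Col18a1.

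Of the 7 glycoproteins and proteoglycans, 6 had a fold change above 0 at 6 months, with a median of 0.50, and Dcn and Bgn had an unadjusted p under 0.05. The median was 0.02 without replicate 3, 0.68 without replicate 5 and 0.17 without both, and Bgn was at 0.57 with all livers and 0.20 without replicate 3. Decorin (Dcn, chromosome 10, 97479609 to 97518143), which binds collagen fibrils and transforming growth factor beta, had 164, 140, 158, 94.3 and 177 CPM in Rosa26 and 176, 198, 346, 201 and 123 CPM in HIRA KO livers. Its log2 fold change was 0.51 ± 0.21 (edgeR adjusted p = 0.251) and 0.25 without replicate 3. Fibronectin went the other way, with 1790, 2280, 1480, 2300 and 1860 CPM in Rosa26 and 1640, 1960, 1140, 1870 and 1490 CPM in HIRA KO livers, and the ranges overlapped at a log2 fold change of -0.26 ± 0.16, or -0.16 without replicate 3. Replicate 3, the highest liver for most of the matrix genes, was the lowest of the 20 for fibronectin. Periostin (Postn), a matricellular protein of remodelling tissue, had 7.00, 4.43, 6.41, 2.83 and 4.22 CPM in Rosa26 and 8.37, 8.02, 7.51, 8.41 and 3.00 CPM in HIRA KO livers. The 4 HIRA KO livers other than replicate 5 lay above all controls, and with replicate 5 included the difference was 0.50 ± 0.24 on the log2 scale (edgeR adjusted p = 0.325). Without replicate 5 it was 0.69 (adjusted p = 0.0739).

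Of the 5 proteases and inhibitors, each had a fold change above 0 at 6 months, with a median of 0.35, which was -0.02 without replicate 3, 0.62 without replicate 5 and 0.14 without both. Timp2, an inhibitor of metalloproteases, had an unadjusted p under 0.05, at 0.51 ± 0.24 with all livers and 0.18 without replicate 3. Mmp14 had 48.3, 57.0, 41.9, 51.3 and 49.7 CPM in Rosa26 and 76.2, 49.7, 62.1, 43.0 and 34.2 CPM in HIRA KO livers. The HIRA KO values covered the whole control range on both sides, at a log2 fold change of 0.10 ± 0.14. Timp1 (chromosome X, 20870166 to 20874735), an inhibitor induced in fibrosis, was sparse, with 4 to 32 counts in Rosa26 and 2 to 55 counts in HIRA KO livers at 6 months. The highest counts in the arms were in replicate 3 of each, and the log2 fold change was 0.35 ± 0.60 with all livers and -0.83 without HIRA replicate 3.

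All 5 ligands and receptors had a fold change above 0 at 6 months, with a median of 0.47, which was 0.11 without replicate 3, 0.60 without replicate 5 and 0.27 without both. The platelet-derived growth factor receptor Pdgfra (chromosome 5, 75152292 to 75198215) had 5.34, 5.45, 5.38, 4.40 and 6.33 CPM in Rosa26 and 7.70, 7.10, 18.1, 5.77 and 3.96 CPM in HIRA KO livers. Its log2 fold change of 0.67 ± 0.27 (edgeR adjusted p = 0.23) was 0.19 without replicate 3 and 0.35 (adjusted p = 0.357) without replicates 3 and 5. Pdgfrb, the receptor more typical of stellate cells and the most abundant of this group per kilobase, had 14.5, 15.0, 13.9, 12.9 and 17.2 CPM in Rosa26 and 17.3, 16.9, 41.1, 14.1 and 12.1 CPM in HIRA KO livers. Apart from replicate 3, the HIRA KO values of Pdgfrb lay within 12.1 to 17.3 CPM and so covered the control range. Its log2 fold change was 0.47 ± 0.23, and 0.04 without replicate 3. Tgfb1, the principal fibrogenic ligand, differed little between the arms at 6 months (0.19 ± 0.27), and its highest value, 27.7 CPM, was in a control liver, Rosa26 replicate 3.

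The 4 contractile and filament genes had log2 fold changes of 0.30 to 0.43 at 6 months, and none had an unadjusted p under 0.05. Their median was 0.38, which was 0.20 without replicate 3, 0.47 without replicate 5 and 0.30 without both. Acta2, the smooth muscle actin that marks myofibroblasts, had 3.33, 2.66, 3.31, 3.52 and 5.50 CPM in Rosa26 and 4.77, 4.92, 7.67, 3.72 and 3.51 CPM in HIRA KO livers. Its highest value was in another group, 10.7 CPM in HIRA replicate 3 at 3 weeks, where the other 4 livers had 1.38 to 2.95 CPM. Vimentin (Vim, chromosome 2, 13573927 to 13582826) had 23.3, 27.8, 33.9, 18.3 and 30.8 CPM in Rosa26 and 24.3, 33.7, 64.3, 42.0 and 16.6 CPM in HIRA KO livers at 6 months, a log2 fold change of 0.43 ± 0.25, or 0.11 without replicate 3. Desmin (Des), an intermediate filament of stellate and muscle cells, had 5.42, 6.06, 7.27, 5.42 and 6.70 CPM in Rosa26 and 7.98, 7.56, 9.79, 7.53 and 5.03 CPM in HIRA KO livers. As for Postn, the 4 HIRA KO livers other than replicate 5 lay above all controls, at a log2 fold change of 0.30 ± 0.15 with all 5 (edgeR adjusted p = 0.342). The Tagln counts share 108 exonic bases with Pcsk7 on the opposite strand, which has 1546% of the counts of Tagln, and 1241 with the antisense gene Gm48529, which has 88.1%, and use of the strand in counting is not stated.

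The quiescent markers Lrat and Reln had fold changes above 0, as the activation genes did. Lrat (chromosome 3, 82892579 to 82903973) had 26.1, 15.2, 25.4, 13.8 and 21.7 CPM in Rosa26 and 26.3, 21.6, 37.2, 22.6 and 13.5 CPM in HIRA KO livers at 6 months. Its log2 fold change was 0.25 ± 0.22 (edgeR adjusted p = 0.656), and that of Reln was 0.48 ± 0.21 (adjusted p = 0.271). Without replicate 3 they were 0.04 and 0.28, and without replicate 5 0.40 and 0.62. Both markers were highest in replicate 3, as were the collagens other than Col15a1 and Col18a1.

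In control livers, no member passed the test between 3 weeks and 6 months after injection, an interval over which the mice also aged. The members split into 16 above and 20 below 0, with a median log2 fold change of -0.03 against 0 over all tested genes. None was called in edgeR, beside 0.162% of all tested genes, and DESeq2 called 0. At an unadjusted p under 0.05 the count was 4 members (11.1%), beside 12.8%. Postn had 8.62, 6.24, 9.57, 11.9 and 9.31 CPM at 3 weeks, mostly above its 6-month values, and its log2 fold change of -0.87 ± 0.24 had the smallest p of any member in the 5 comparisons (edgeR adjusted p = 0.116). With DESeq2 its adjusted p was 0.0292 at -0.86, under the fold threshold. Col15a1 had 7.75, 26.6, 13.5, 7.17 and 15.1 CPM at 3 weeks, an uneven group, and differed by 0.81 ± 0.31 in log2 units (edgeR adjusted p = 0.264). Timp1 had 1 to 5 counts at 3 weeks and a log2 fold change of 1.83 ± 0.73 (adjusted p = 0.276), which was 1.17 without Rosa26 replicate 3 at 6 months. Mmp14 separated the groups, lower at 6 months, as did 3.5% of all tested genes, at -0.35 ± 0.14 (adjusted p = 0.288).

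In HIRA KO livers, the same comparison over time used the 6-month libraries described above, and so shares replicates 3 and 5 with the guide comparison. The log2 fold change was above 0 for 33 of 36 members, with a median of 0.37 against 0.03 over all tested genes. It was 0.04 without replicate 3, 0.51 without replicate 5 and 0.17 without both. None was called, beside 0.0569% of all tested genes, and DESeq2 called 0. At an unadjusted p under 0.05 the count was 11 members, 10 of them higher, beside 8.95% of all tested genes. That count was 2 without 6-month replicate 3 (beside 9.94% of all tested genes), 1 without 3-week replicate 1 (beside 7.5%), 5 without 3-week replicate 3 (beside 8.11%) and 22 without 6-month replicate 5 (beside 10.1%).

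Postn was again lower at 6 months. It had 9.31, 11.5, 11.8, 10.2 and 11.0 CPM in HIRA KO livers at 3 weeks and separated the time points fully, as did 1.47% of all tested genes, with a difference of -0.60 ± 0.24 in log2 units (edgeR adjusted p = 0.458). Col5a2 and Col1a1 had log2 fold changes of 1.87 ± 0.77 and 1.15 ± 0.49 (adjusted p = 0.485 and 0.502 in edgeR). Without replicate 3 these were -0.16 and 0.05.

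The change of the guide effect between the time points was tested directly. It was above 0 for 33 of 36 members, with a median of 0.39 against 0.03 over all tested genes, and the median was -0.01 without replicate 3, 0.52 without replicate 5 and 0.18 without both. No member was called in edgeR or DESeq2, and 0% of all tested genes were. At an unadjusted p under 0.05 the count was 1 member (2.78%), beside 6.62% of all tested genes, and 10 without replicate 5, beside 7.64%. That member was Pdgfra at 0.82 ± 0.38 (edgeR adjusted p = 0.746), and it was 0.35 without replicate 3. Mmp14 followed at 0.40 ± 0.20, from -0.30 at 3 weeks to 0.10 at 6 months, and was 0.22 without HIRA replicate 1 of 6 months and 0.52 without replicate 5. Des was at 0.37 ± 0.21. A difference of the guide effect between 3 weeks and 6 months was therefore not shown for any of the 36 genes.

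The members varied together from liver to liver. Within groups, the median SD of a member was 0.44 on the log2 scale, against 0.20 for genes with at least 1 CPM, and 85.4% of those genes had a smaller SD than the median member. As a description over 20 libraries, the deviation of a member from its group mean was correlated with the median deviation of the other members at r above 0.8 for 22 members and above 0.5 for 30. The values were highest for Col4a1, Col1a2 and Lum (0.96 each) and low for Acta2 (0.22). Fn1 (-0.41), Col18a1 (-0.33) and Col15a1 (-0.16) were the members below 0. Without HIRA replicates 3 and 5 at 6 months, 25 members were above 0.5, and the median r was 0.70 in place of 0.87. Of 12869 other genes with at least 1 CPM, 1.97% had an r above 0.8 with the median deviation of the members and 15.2% above 0.5, and 6.09% were above 0.5 without the 2 libraries. The points share their libraries and the scaling by depth.

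The chains of a collagen were compared directly over the 20 livers, in 4 pairs. For Col1a1 and Col1a2, Pearson's r was 0.96 and Spearman's rho 0.88, for Col4a1 and Col4a2 0.95 and 0.89, and for Col6a1 and Col6a2 0.96 and 0.88. Each had p = 2e-05 in a 2-sided permutation test, the smallest that the permutations can give. It was 2.7e-05 after Benjamini-Hochberg adjustment over the Pearson and Spearman tests of the 4 pairs together. Without the 2 libraries farthest from the median, HIRA replicates 3 and 5 at 6 months, Pearson's r was 0.87, 0.91 and 0.84. For Col5a1 and Col5a2, r was 0.59 (permutation p = 0.018, adjusted 0.02) and rho 0.47 (permutation p = 0.038, adjusted 0.038). That relation rested on the same libraries, since r was 0.07 and rho 0.27 without them. The log2 ratio of Col5a1 to Col5a2 counts ran from -0.85 in HIRA replicate 3 to 3.00 in HIRA replicate 1 at 6 months, a wider span than that of the Col4a1 to Col4a2 ratio (0.24 to 0.77), whose genes share 22 exonic bases on opposite strands.

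Markers of several other cell types moved with the members in the same libraries. For each list, the median over its genes of the centred log2 level was taken per liver. The vascular smooth muscle list includes the members Des, Tagln and Acta2, so its agreement with the members is partly built in. In HIRA replicate 3 it was the highest of the 20 libraries for portal fibroblast markers (1.40), lymphocyte markers (1.62), biliary markers (0.75), vascular smooth muscle markers (0.71) and other stellate markers (0.63), while sinusoidal endothelial markers (-0.06) ranked lower and hepatocyte markers (-0.24) were next to the lowest. In replicate 5 it was the lowest for portal fibroblast (-0.97), biliary (-1.24) and Kupffer cell markers (-1.42) and the highest for hepatocyte markers (0.22). The mesothelial (0.78) and Kupffer cell markers (0.33) of replicate 3 were not the highest of the 20 livers. The Kupffer cell markers were highest in Rosa26 replicate 3 at 6 months (1.80), where the members lay at 0.11. The summed level of the portal fibroblast markers was 219.3 to 415.5 CPM in Rosa26 and 115.4 to 323.5 CPM in HIRA KO livers at 6 months, and that of the other stellate markers was 210.8 to 398.6 and 276.8 to 510.8 CPM. Mfap5 of the portal fibroblast list was at 0 in 8 libraries, Cnn1 and Actg2 of smooth muscle in 2 and 1, Cftr of the biliary list in 2 and Upk1b of the mesothelial list in 1. The part of these cells in the members' values was not tested.

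**Figure D4:**
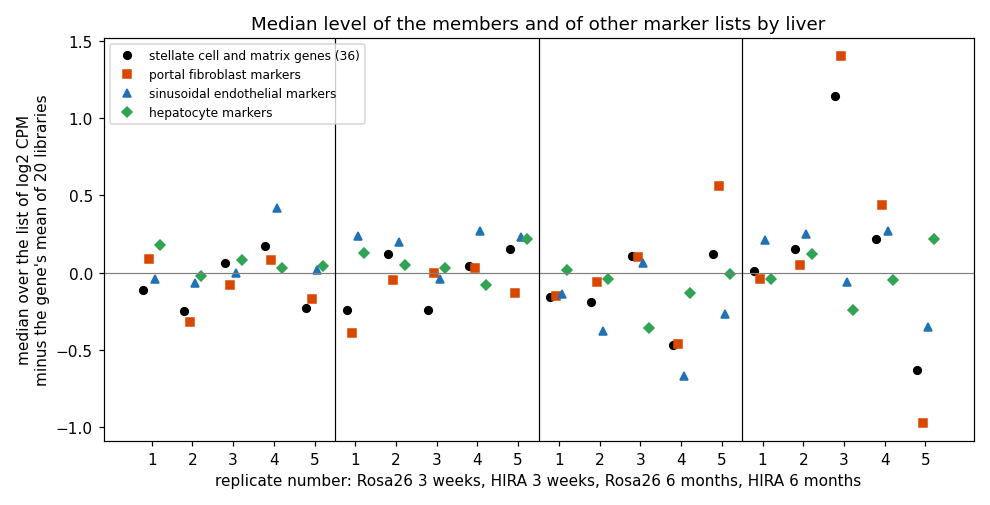
Median over each list of log2 CPM minus the gene's 20-library mean (vertical axis) in each of the 20 livers (horizontal axis, replicate number in 4 groups divided by lines), for the 36 members and for 3 marker lists. In HIRA replicate 3 at 6 months the members (1.14) and the portal fibroblast markers (1.40) are the highest of all livers, while endothelial (-0.06) and hepatocyte markers (-0.24) are not.

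The wider lists were described at 6 months in the same way. Of 16 other stellate markers, 16 had a fold change above 0, with a median of 0.36, which was 0.14 without replicate 3 and 0.33 without replicates 3 and 5. For 14 portal fibroblast markers the median was 0.45, and -0.16 and 0.07 in those fits, and the smallest p belonged to Entpd2 (0.37 ± 0.17) and Smoc2 (0.85 ± 0.39). Smoc2 had 35.5 CPM in replicate 3, against 4.93 to 15.6 CPM in the other HIRA KO livers and 6.11 to 13.8 CPM in Rosa26. For 10 vascular smooth muscle markers it was 0.31, and 0.20 and 0.29, with the smallest p for Smtn (0.50 ± 0.16, edgeR adjusted p = 0.131) and the member Des. The 10 sinusoidal endothelial markers had a median of 0.33, which was 0.36 without replicate 3 and 0.50 without both, with the smallest p for Oit3 (0.52 ± 0.16, adjusted p = 0.112) and Stab1 (0.38 ± 0.13, adjusted p = 0.142). Like every marker list except vascular smooth muscle, this list shares no gene with the members. It was the marker list whose median moved least when replicate 3 was left out. Between 3 weeks and 6 months, the endothelial median was -0.35 in Rosa26 and -0.09 in HIRA KO livers. That of the other stellate markers was -0.29 in Rosa26 and 0.04 in HIRA KO livers. At 6 months the medians were 0.33 for 7 mesothelial, 0.22 for 9 biliary, -0.10 for 11 Kupffer cell and macrophage, 0.48 for 9 lymphocyte and 0.14 for 10 hepatocyte markers. The mesothelial, biliary and lymphocyte medians were 0.14, -0.05 and 0.30 without replicate 3 and 0.30, 0.13 and 0.57 without both. The Kupffer cell and macrophage median was -0.19 without replicate 3, 0.15 without replicate 5 and 0.11 without both, and the hepatocyte median was 0.20, 0.05 and 0.07. No gene of the mesothelial, biliary, Kupffer cell and macrophage, lymphocyte and hepatocyte lists had an adjusted p under 0.05 in either guide comparison. Over both guide comparisons, the genes with the smallest p in these lists were Wt1 and Upk3b, Cldn7 and Epcam, Gpnmb and Marco, Cd79a, and Apoa1 and Alb. For Upk3b (-0.69 ± 0.67), Cd79a (0.85 ± 0.31) and Apoa1 (-0.46 ± 0.16) the smaller p was that of 3 weeks. At 6 months they were at -0.01 ± 0.66, 0.48 ± 0.30 and 0.18 ± 0.16.

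Hand2 (other stellate list), a transcription factor that marks stellate cells of healthy liver, had an adjusted p under 0.05 at 6 months but was not called. It had 6.10, 5.03, 4.78, 3.94 and 5.41 CPM in Rosa26 and 8.72, 8.88, 11.2, 8.70 and 5.69 CPM in HIRA KO livers. Of the HIRA KO livers, 4 lay above all controls, and replicate 5 lay within the control range. It differed by 0.78 ± 0.18 in log2 units (edgeR adjusted p = 0.0379), under the fold threshold of 1. The adjusted p ranged from 0.013 to 0.121 when each of 10 livers was left out in turn and stayed under 0.05 in 2 of these fits. It was 0.0866 at 0.66 without replicate 3 and 0.0439 at 0.79 without replicates 3 and 5. At 3 weeks the log2 fold change was 0.17 ± 0.18 (adjusted p = 0.871), from 5.04 to 9.65 CPM in Rosa26 and 7.59 to 10.1 CPM in HIRA KO livers. The Rosa26 range at 6 months, 3.94 to 6.10 CPM, lay lower, and the HIRA KO range, 5.69 to 11.2 CPM, spanned that of 3 weeks.

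Among the signalling and collagen-processing genes around the members, 1 gene was called, at 3 weeks, beside 0.114% of all tested genes. Of 26 genes of transforming growth factor beta and platelet-derived growth factor signalling, 13 had a fold change above 0 at 3 weeks and 19 at 6 months, with medians of 0.01 and 0.32, and the latter was 0.06 without replicate 3. None had an adjusted p under 0.05. The smallest p belonged to Eng, an endothelial co-receptor, at 6 months (0.44 ± 0.12, edgeR adjusted p = 0.0787) and to Skil, an inhibitor of SMAD signalling, at 3 weeks (-0.83 ± 0.23, adjusted p = 0.177). Without replicate 5, Eng and Itgb8 passed 0.05. Of 24 collagen processing and cross-linking genes, 9 lay above 0 at 3 weeks and 18 at 6 months, with medians of -0.05 and 0.22, the latter 0.09 without replicate 3. Loxl4, a lysyl oxidase that cross-links collagen, fell at 3 weeks, from 11.7, 21.7, 7.77, 7.57 and 9.07 CPM in Rosa26 to 1.57, 3.65, 3.87, 1.75 and 2.67 CPM in HIRA KO livers. The groups did not overlap, as for 2.69% of all tested genes. The difference was -2.10 ± 0.41 on the log2 scale (edgeR adjusted p = 0.0391). With each of 10 livers left out in turn, the adjusted p ranged from 0.039 to 0.13 and was under 0.05 in 1 fit. The difference of Loxl4 ranged from -2.26 to -1.74 in these fits, and from -2.10 to -1.11 over the other alternatives. At 6 months its log2 fold change was -1.43 ± 0.41 (adjusted p = 0.0826). The fibrillar collagens, on which such enzymes act, had a median log2 fold change of 0.04 at 3 weeks.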

How the data were processed

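RNA-seq counts were analysed for 20 mouse livers, grouped by the sample titles (5 in each of 4 groups). Per the labels and methods, polyadenylated RNA was sequenced with a directional kit and aligned with STAR to mm10 (the GRCm38 assembly). The authors deposited raw counts per gene, whole numbers without normalization, and FPKM values. The labels' processing notes also name HTSeq and Cufflinks, the methods name HOMER, and use of the strand is not stated. The FPKM table deposited by the authors has 629498 blank cells, taken as 0, and served only as an alternative.

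Genes with at least 10 counts in total (22867 of 55421) were tested with edgeR 4.0.16 (quasi-likelihood test, TMM normalization), with a mean for each of 4 groups fitted over all 20 libraries and Benjamini-Hochberg adjustment over all tested genes. As in the study, called means an adjusted p under 0.05 and an absolute log2 fold change over 1. Adjusted p-values are from edgeR unless DESeq2 is named, errors of fold changes are standard errors, and CPM used TMM-scaled library sizes, with a prior count of 2 on the log2 scale only. Levels per kilobase used exon lengths of GENCODE M21, to which 54673 identifiers (98.7%) matched with their version. The labels number 5 libraries in each group without saying that each came from a separate mouse, so the p-values measure the spread between these samples.

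The members and the marker and pathway lists were chosen with earlier results of these data known. Named members are the most abundant of each role per kilobase and the 3 with the smallest p in each comparison. Others are named where a statement needs them (Acta2, Tgfb1, Tagln, Bgn and further members, chosen after their values were seen). Genes of the wider lists are named at an adjusted p under 0.05, or else as the 2 with the smallest p in the guide comparisons. Of 27 signalling genes, 26 were found by symbol. For the lymphocyte list, 1 of the 2 genes is not reported here.

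Alternatives were DESeq2 1.42.0, its size factors in edgeR, 2 count filters, only the libraries compared, no fold threshold, log2(FPKM + 1) with limma 3.58.1 (mean of at least 0.1 FPKM), the replicate number as a block, and each library left out. Leaving out HIRA replicates 3 and 5 of 6 months together was added after the data were seen. On simulated data for the 6-month comparison, 93 of 100 genes changed by 1.5 log2 units and 98 of 100 changed by 2 were recovered among 22867, with 6 false calls. The changed genes were drawn from those with at least 1 CPM, with noise independent between genes. The members vary more (median SD 0.44 against 0.20) and vary together, so this recovery need not hold for them. Smaller changes were not simulated. Models were run in R 4.3.3, and permutation tests in scipy 1.17.1 (Python 3.11.15, with pandas 2.3.3 for tables). Figures were drawn with matplotlib 3.10.9.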

Additional observations from a re-analysis of the deposited data

Results flagged for a closer look

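In groups of 5 livers, a value was singled out when its gap to the nearest other value exceeded 0.71 of the group's whole range (Dixon's 95% value). Of 148 combinations tested (the 36 genes and their median level, each in 4 groups), 7 did so, and chance alone marks about 1 in 20. Levels here are log2 CPM. In the HIRA group at 6 months, Col5a2 was 5.62 in replicate 3, the highest of its group, and Postn was 1.63 in replicate 5, the lowest. In the HIRA group at 3 weeks, Tagln was 0.02 in replicate 1, the lowest, and Tgfb1 was 3.81 in replicate 5, the highest of a tight group. In the Rosa26 group at 6 months, replicate 3 had both the highest Tgfb1 (4.79) and the lowest Col18a1 (10.2). The median centred level of the Kupffer cell and macrophage markers was also highest of the 20 livers there (1.80), and its part in these values was not tested. In the Rosa26 group at 3 weeks, Col4a2 was 5.14 in replicate 4, the highest.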

How the results depend on the processing

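No member was called under any alternative run. With the replicate number as a block, the median log2 fold change of the members was 0.05 at 3 weeks, 0.41 at 6 months, -0.03 and 0.30 over time in Rosa26 and HIRA livers, and 0.29 for the change between time points, and no call changed. The deviations of same-numbered libraries had correlations from -0.309 to 0.335, over 0.1 in 14 of 30 pairs. For replicate 3 they ran from 0.017 to 0.335. The labels do not say whether such libraries share more than a number, and this was not tested. Leaving out each library in turn moved these medians between -0.02 and 0.14, 0.03 and 0.62, -0.09 and 0.05, 0.04 and 0.51, and -0.01 and 0.52, and in 3 of them both ends came from HIRA replicates 3 and 5 of 6 months. Col5a2 over time in HIRA livers ranged from -0.16 (reversed) without replicate 3, which held its highest value, to 2.15 without replicate 5. Apart from leaving out libraries, the 6-month median ranged from 0.28 (FPKM) to 0.46. DESeq2 brought Col18a1 at 6 months (adjusted p = 0.0299) and Postn over time in Rosa26 livers (0.0292) past 0.05, and the cause was not tested. The adjusted p of Hand2 was over 0.05 with only the compared libraries (0.14) and with FPKM (0.0857), and Loxl4 lost its call with FPKM (0.0517). Over all genes at 6 months, 76 were called, against 127 with DESeq2, 19 with FPKM and 0 with only the 10 compared libraries. The count of 9 members with an unadjusted p under 0.05 there, 8 of them higher, was 7, 1 and 2 in these fits (beside 14.3, 16.4 and 12.6% of all tested genes). It was 16 with no count filter (11.6%) and 4 with the block (15.4%). Of these, 6, 1 and 0 were higher in the first 3 fits, and 14 and 2 in the last 2. With only the compared libraries, both members were thus lower. Timp1, at 1 to 55 counts per library, is limited by depth.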
